A study of Mus musculus with 12 samples.

Results

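Cldn1 (claudin-1, NCBI gene 12737) was read by 1 cDNA probe on 12 spotted 2-colour arrays of mouse keratinocyte RNA, and its values on every array, in each dye-swap pair and at each calcium level are described here. It was selected by the probe annotation as 1 of 6774 named genes, with earlier results of these data known, so its own values are given as a description with no test. The arrays held primary skin keratinocytes of C57Bl/6NCr mice given an adenovirus that carries deltaNp63alpha, a p63 isoform without the N-terminal transactivation domain, set against the same cells transduced with adenovirus encoding beta-galactosidase. RNA was taken 41 h after transduction from cells held for 24 h in 0.12 mM calcium (high calcium), which induces keratinocytes to differentiate per the labels, or in 0.05 mM calcium (low calcium). At each calcium level 3 repeats were run, with every repeat hybridised once with the RNA labelled deltaNp63alpha in Cy5 (a forward array) and once with it in Cy3 (a reversed array), which gave 6 dye-swap pairs in all. The labels call the arrays technical repeats and name no separate cultures or animals, so spreads and p-values measure only the variation between these hybridisations. No array set high calcium against low calcium directly, so the effect of calcium on Cldn1 itself was not measured.

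Claudin-1 is a membrane protein that builds the sealing strands of tight junctions, the cell contacts that limit leakage between neighbouring epithelial cells. In the epidermis, tight junctions lie in the granular layer, and mice without claudin-1 die soon after birth from water loss through the skin. Inside the cell, claudins are held by scaffold proteins of the ZO family, next to adherens junctions built from cadherins and catenins. p63 is a transcription factor of the p53 family that keratinocytes need to form a stratified epidermis.

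The sequence just upstream of the gene is shown because the study altered a DNA-binding factor and Cldn1 RNA is the readout. In the RefSeq annotation (build GRCm38.p6) the 250 bases before the Cldn1 start lie on the minus strand at chr16:26371840-26372089. Capitals mark the matches to CATG, to CTAG and to CAAG (CTTG on the other strand), which are the forms of the core of the half-site bound by the p53 family.
Cldn1 upstream: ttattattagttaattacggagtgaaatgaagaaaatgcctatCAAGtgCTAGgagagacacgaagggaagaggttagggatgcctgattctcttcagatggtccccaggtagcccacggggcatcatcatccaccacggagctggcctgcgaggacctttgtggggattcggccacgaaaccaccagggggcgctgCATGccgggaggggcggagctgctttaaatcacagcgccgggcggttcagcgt
The CATG match began at position -53 from the start the CTAG match at -201 and the CAAG match at -207, 1 match each. CATG occurred in 53.9% of all 32851 upstream windows of this length, CTAG in 53.2% and CAAG, on either strand, in 86.6%, so all of them are common. CAGGTG, the E-box form bound by Snail repressors, was not in this window and was present in 17.2% of promoters. The TATA box form TATAAA was not in it either and was present in 12.4%. Both strands were searched for each motif. In the same annotation P3h2 is the protein-coding gene between Cldn1 and Trp63, so the gene encoding p63 is the second protein-coding gene from Cldn1 on that side of chromosome 16.

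The Cldn1 probe had a value on 6 of 12 arrays, both arrays of high calcium repeats 1 and 2 and of low calcium repeat 1. In high calcium repeat 3 and low calcium repeats 2 and 3 it had none. The 6 arrays with a value were the well-filled ones, with 7869 to 9096 of 9558 probes measured, and the others had 3366 to 6974. Of 5208 named genes with a value on all 6 of these arrays, 933 (17.9%) had none on any of the other 6, as Cldn1 did. The spot filter behind the missing values is not given in the sources used here, so a missing value says nothing of the level.

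On the 3 forward arrays the deposited log2 dye ratio of Cldn1 was -1.62 and -1.46 in high calcium repeats 1 and 2, and -1.41 in low calcium repeat 1. On the 3 reversed arrays it was 0.777 and 1.47 in high calcium repeats 1 and 2, and 1.63 in low calcium repeat 1. Every forward value was thus below 0 and every reversed value above 0, with no overlap between the orientations. This turn of sign in all 3 pairs, in this direction, was seen in 410 of the 5208 genes (7.87%), and 221 (4.24%) turned the other way in all 3. A further 1256 genes (24.1%) had the same sign on both arrays in each of the 3 pairs.

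**Figure D1:**
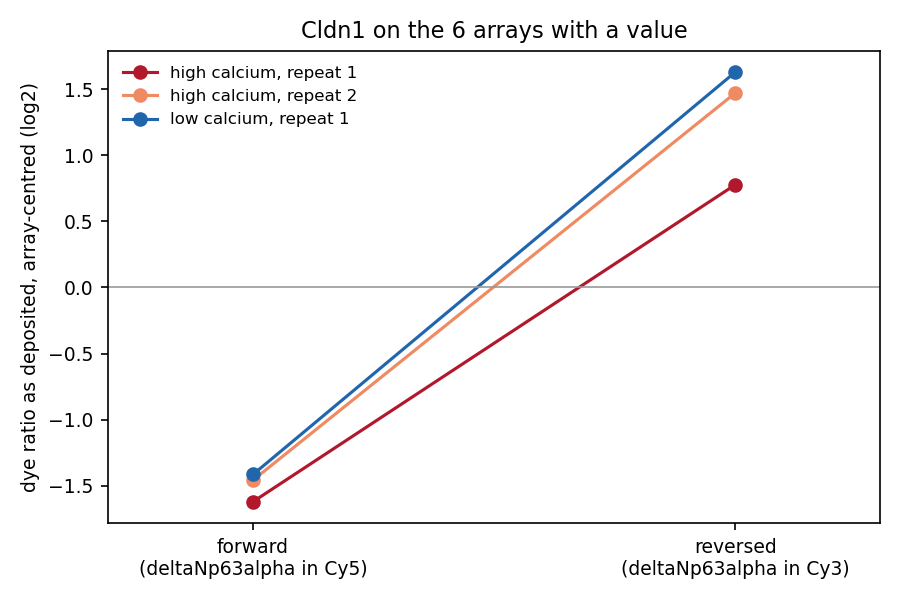
Cldn1 dye ratio as deposited and centred on the array median (log2, vertical axis) on forward and reversed arrays, with 1 line for each of the 3 dye-swap pairs that measured it. The 3 forward values lie between -1.62 and -1.41, the reversed values between 0.776 and 1.63.

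A sign for deltaNp63alpha over beta-galactosidase needs a choice, since the dye in the numerator of the deposited ratio is not stated. Read as Cy5 over Cy3, the reversed arrays are turned and a pair value is the forward minus the reversed value, divided by 2. That choice of direction is a likely one only. Its basis is that dye ratios are usually given as Cy5 over Cy3, and that the title of the study speaks of negative regulation of maspin, whose gene, Serpinb5, reads lower this way. With Cy3 in the numerator all signs would turn together. In the labels the second channel always holds the deltaNp63alpha RNA, whatever its dye, and values formed as channel 2 over channel 1 could stand without turning. In that reading the pair value is the mean of both arrays: -0.42 and 0.01 for Cldn1 in high calcium repeats 1 and 2, and 0.11 in low calcium repeat 1, so Cldn1 would stand near 0 in 2 of 3 pairs.

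The p63 gene itself does not settle the direction. The single Trp63 probe had deposited values of -0.77, 0.002 and -1.71 on the forward arrays of high calcium repeats 1 to 3 and of -0.98 and -0.999 on those of low calcium repeats 1 and 2. On reversed arrays it had 0.41 and 1.02 in high calcium repeats 1 and 2, and 0.57 and -1.91 in low calcium repeats 1 and 2. With reversed arrays turned, the Trp63 pair values were -0.59 and -0.50 in high calcium and -0.78 and 0.45 in low calcium, where an added p63 RNA would give positive values. No source used here says if this probe can detect the RNA made from the adenovirus. The signs below therefore speak of the RNA labelled deltaNp63alpha. In RNA from whole cultures, fewer cells of a type and less RNA per cell cannot be told apart.

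With reversed arrays turned, Cldn1 read lower in the RNA labelled deltaNp63alpha in each of the 3 pairs that measured it. The pair values were -1.20 in high calcium repeat 1 and -1.46 in high calcium repeat 2, a mean of -1.33 ± 0.19 (SD, n = 2 pairs), or 2.51-fold lower. In low calcium the only pair, repeat 1, stood at -1.52, or 2.87-fold lower. Over both calcium levels the mean was -1.39 ± 0.17 (SD, n = 3 pairs), or 2.63-fold lower.

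Ordered by level, low calcium repeat 1 was lowest, high calcium repeat 2 lay next to it, and high calcium repeat 1 was highest. The mean of the high calcium pairs lay 0.19 above the single low calcium pair, about as far as the SD between the high calcium pairs, and with 1 low calcium pair the difference has no replicate check. The spread in high calcium came mainly from the reversed arrays, at 0.777 and 1.47, while the forward arrays were at -1.62 and -1.46. Forward arrays alone gave -1.54 in high calcium and -1.41 in low calcium. Turned reversed arrays alone gave -1.12 in high calcium and -1.63 in low calcium. The order of the calcium levels was therefore opposite in the 2 orientations.

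With reversed arrays turned, Cldn1 lay in the lower tail of the genes in each pair. In high calcium repeat 1 it ranked 20 from the lowest among 5574 named genes, whose 5th and 95th percentiles were -0.53 and 0.41. In high calcium repeat 2 it ranked 26 among 6285 genes, against percentiles of -0.79 and 0.33. In low calcium repeat 1 it ranked 8 among 6074 genes, against percentiles of -0.66 and 0.39. With signs kept it lay inside the 5th to 95th percentiles in each pair: 14.2% of the genes were lower in high calcium repeat 1, 44.0% in high calcium repeat 2 and 58.0% in low calcium repeat 1. These ranks describe the values for which the gene was chosen and are no test.

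**Figure D2:**
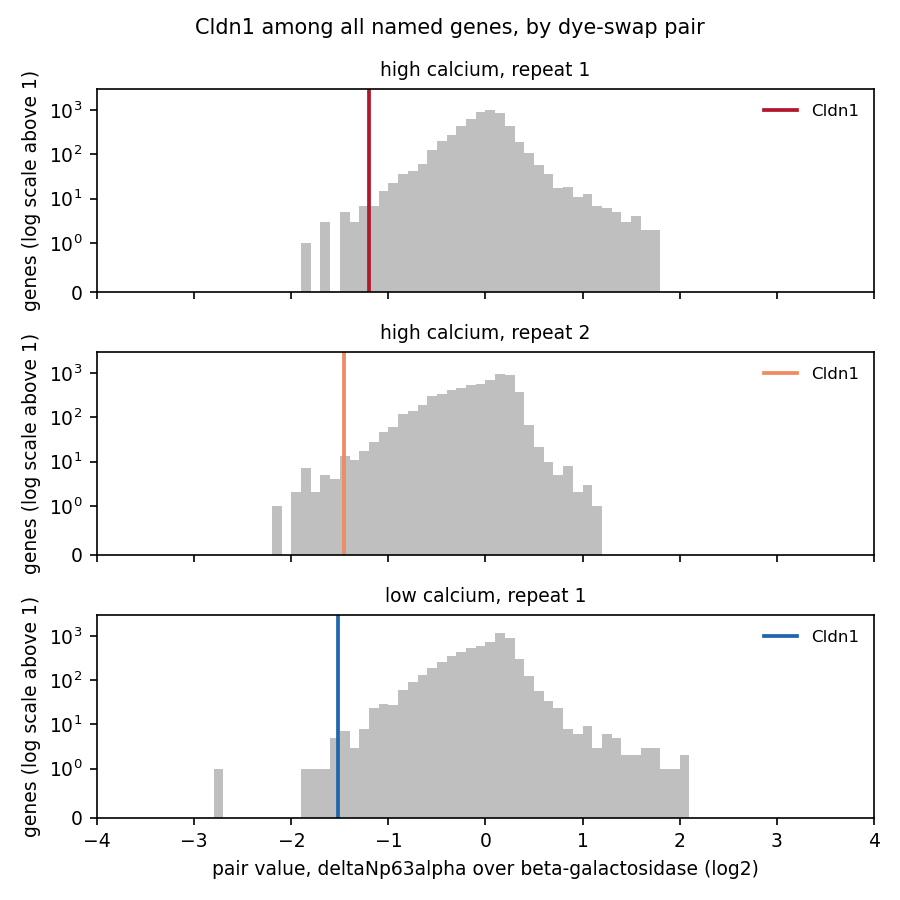
Number of named genes (vertical axis, logarithmic above 1) by pair value of deltaNp63alpha over beta-galactosidase (log2, horizontal axis, reversed arrays turned), 1 panel for each pair that measured Cldn1. The vertical lines mark Cldn1 at -1.20, -1.46 and -1.52, in the lower tail of each panel.

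Split into a component that turns with the dyes and one common to both dye orders, Cldn1 had means over 3 pairs of -1.39 and -0.10. The turning component was the larger in all 3 pairs, as it was for 753 (14.5%) of the 5208 genes. Only 9 of the 5208 genes had a lower mean turning component than Cldn1.

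**Figure D3:**
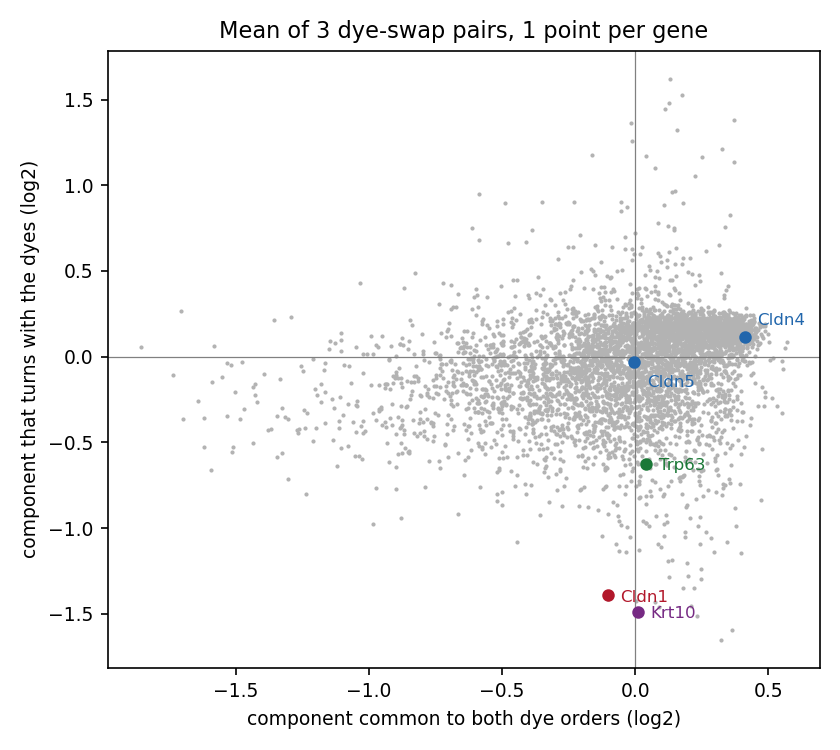
Mean over 3 dye-swap pairs of the component common to both dye orders (log2, horizontal axis) and of the component that turns with the dyes (log2, vertical axis), 1 grey point per named gene measured on all 6 arrays. Cldn1 lies at -0.10 and -1.39, close to Krt10 at 0.01 and -1.49 and below Trp63 at 0.04 and -0.62, while Cldn4 (0.41 and 0.11) and Cldn5 (0.00 and -0.03) have turning components near 0.

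The genes whose pattern was most like that of Cldn1 were found by the Pearson correlation of array-centred values over the 6 arrays, among 5207 other named genes. These arrays form 3 dye-swap pairs and share their RNA sources, and any gene that turns with the dyes in this direction scores high: 447 genes (8.58%) had r above 0.9. The 6 highest were Aif1 (r = 0.998), which encodes an actin-binding protein known from macrophages, Azi2 (0.998), an adaptor of the kinase TBK1, the ephrin ligand gene Efna4 (0.996), Lamtor2 (0.996), which encodes a subunit of the lysosomal Ragulator complex, the centromere protein gene Cenpb (0.996) and Mpp1 (0.995), a membrane-associated guanylate kinase gene. Their mean pair values over the same 3 pairs were smaller than that of Cldn1, from -0.51 (Azi2) to -1.05 (Mpp1). By size as well as shape the nearest gene was Krt10, a suprabasal keratin, with a root mean square difference from Cldn1 of 0.29 on the log2 scale. Krt10 was singled out after its values were seen.

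The other 5 claudins with a probe of their own had pair values (reversed arrays turned) nearer to 0 than Cldn1. Cldn4 had pair values of 0.04 and 0.17 in high calcium repeats 1 and 2, and of 0.13 and -0.52 in low calcium repeats 1 and 2. Cldn5, best known from blood vessels and also held by the endothelial list, had 0.00, -0.08 and -0.46 in high calcium and -0.03, 0.41 and -0.64 in low calcium. Cldn6 had 0.03 and -0.18 in high calcium repeats 2 and 3, and 0.05 and 0.15 in low calcium repeats 1 and 2. Their values straddled 0, and in the pairs that measured Cldn1 none of these 3 lay below -0.08.

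Cldn7 had -0.28 in high calcium repeat 2 and 0.02 in low calcium repeat 1. Cldn8 had -0.72 in high calcium repeat 2, and -0.31, 0.51 and -0.01 in low calcium repeats 1 to 3. No pair value of these 5 genes, reversed arrays turned, reached the -1.20 of the weakest Cldn1 pair. Single arrays differed: in high calcium repeat 2 Cldn8 was at -1.92 on the forward and -0.47 on the reversed array. Cldn1 was at -1.46 and 1.47 there. Limma tested 3 of them in high calcium and 4 in low calcium. None passed at an adjusted p under 0.05, and none had an unadjusted p under 0.05, against 1.39% of 7263 rows called in high calcium and 0.409% of 4646 in low calcium. An unadjusted p under 0.05 was seen in 842 and 439 of these rows. With signs kept as deposited, Cldn4 (log2 0.82, limma adjusted p = 0.0466; 0.0466 to 1.0 over its alternatives) and Cldn8 (-1.45, limma adjusted p = 0.0437; 0.0437 to 1.0) passed in low calcium, where 785 rows were called. The Cldn3, Cldn17 and Cldn22 probes also carry a second gene symbol and are not reported.

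Of 48 listed tight junction partners (scaffolds, polarity proteins and other membrane proteins of the junction), 22 were on the arrays. None of the 17 tested in high calcium and none of the 12 tested in low calcium passed (limma). At an unadjusted p under 0.05, 2 were lower in high calcium and 1 was higher in low calcium. Over all rows tested, 842 of 7263 in high calcium and 439 of 4646 in low calcium had an unadjusted p under 0.05. The median log2 ratio of those tested was -0.08 in high calcium and 0.07 in low calcium, against 0.01 and 0.02 over all rows tested.

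The smallest p in high calcium was that of Dlg1, a scaffold of the Scribble polarity complex, with pair values of -0.69 and -1.07 in high calcium repeats 1 and 2. It stood at -0.88 ± 0.20 (SE, n = 2 pairs; limma adjusted p = 0.0655), and its low calcium repeat 1 pair was at -1.04. In low calcium it was that of Magi3, a membrane-associated guanylate kinase, at 0.29 and 0.56 in low calcium repeats 1 and 2 (limma adjusted p = 0.485). Chosen after its values were seen, Amotl2, an angiomotin family member, was at -0.65 and -1.10 in high calcium repeats 1 and 2 (log2 -0.87 ± 0.20 SE, n = 2 pairs; limma adjusted p = 0.0698) and at -0.65 in low calcium repeat 1. Of the ZO protein genes, added after their values were seen, Tjp3 had -0.15 and -0.12 in high calcium and -0.05 in low calcium repeat 1. Tjp1 was measured only in other pairs, at -0.01 in high calcium repeat 3 and at 0.51 and -0.47 in low calcium repeats 2 and 3. Dlg1 passed with each low calcium pair left out in turn (limma adjusted p = 0.0340 to 0.0476, and 0.0200 to 0.972 over all its alternatives). Its estimate stayed at -0.88 in these fits. Dlg1 had no value in low calcium repeats 2 and 3, so leaving those out took away none of its own values.

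In the 3 pairs that measured Cldn1, 7 of 16 tight junction partners were lower in all 3 and 5 were higher in all 3. Over all 5208 genes these shares were 25.1% and 29.6%. The means over the 3 pairs ran from -0.93 (Dlg1) to 0.33 (Ubn1), so every partner stood closer to 0 than Cldn1 at -1.39.

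**Figure D4:**
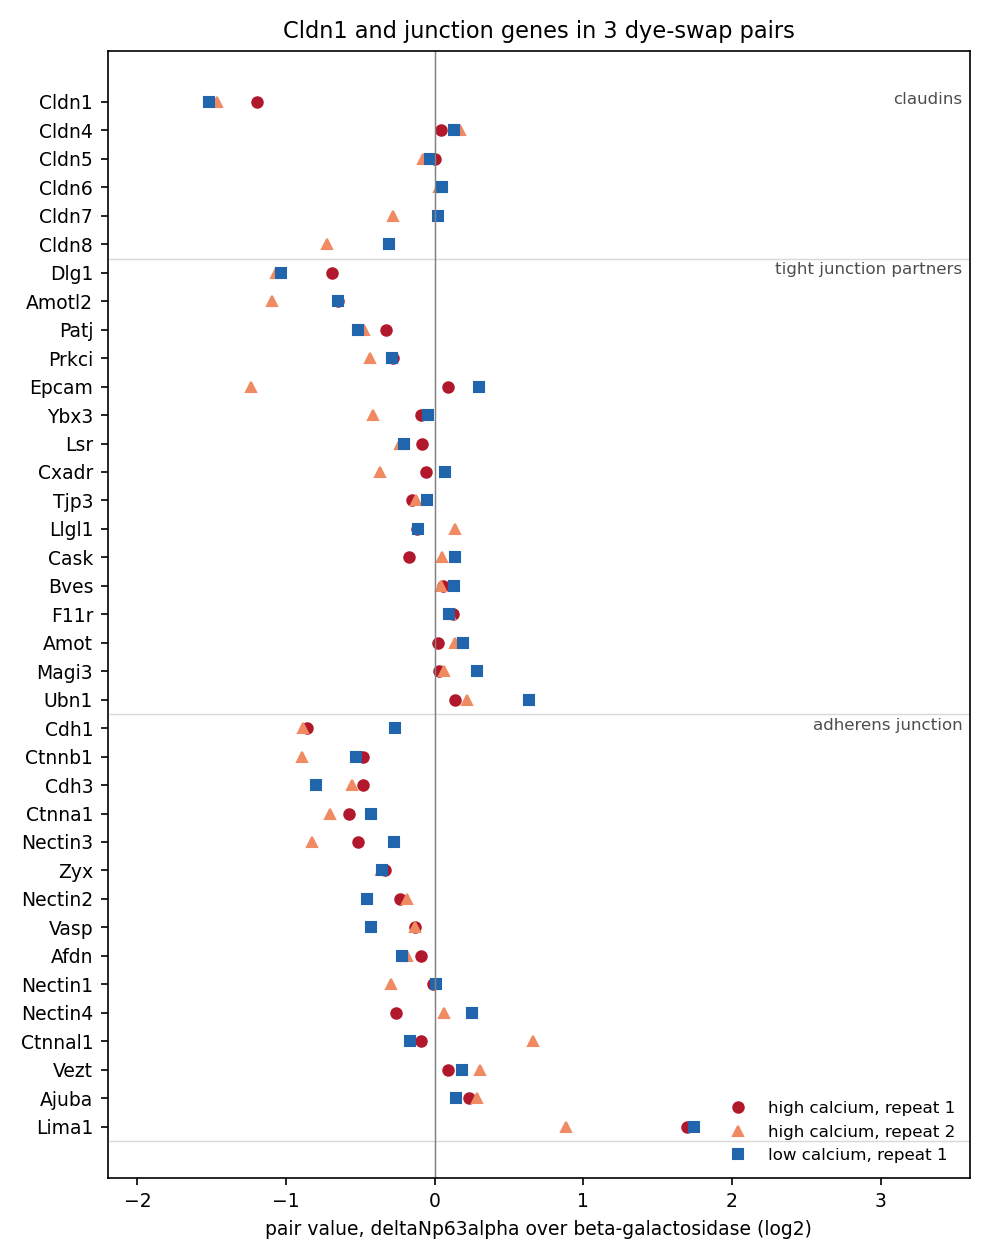
Pair values of deltaNp63alpha over beta-galactosidase (log2, horizontal axis, reversed arrays turned) for claudins, and for tight junction partners and adherens junction genes with a value in all 3 pairs that measured Cldn1, 1 symbol per pair. The 3 pair values of Cldn1 are -1.20, -1.46 and -1.52, with Epcam at -1.23 in high calcium repeat 2 but at 0.09 and 0.30 in the other pairs, and Lima1 is at 1.70, 0.89 and 1.74. Epcam is named here after its values were seen.

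Of 21 other adherens junction genes 17 were on the arrays, 15 were tested in high calcium and 10 in low calcium. In high calcium 1 rose (against 0.551% of all rows called higher) and none fell (against 0.84% called lower). It was Lima1, which encodes an actin-binding protein that links to catenins, at 1.70 and 0.89 in high calcium repeats 1 and 2 (limma: log2 1.29, SE 0.27, n = 2 pairs, adjusted p = 0.0375). The low calcium pairs were at 1.74 and 0.68 (log2 1.21; limma adjusted p = 0.1), against 0.0215% of rows called higher in low calcium. With the repeat number as a block Lima1 stood at 0.82 in high calcium and did not pass (limma adjusted p = 0.214; 0.00823 to 0.883 over all its alternatives). At an unadjusted p under 0.05, 5 adherens genes were lower and 2 higher in high calcium, and 2 were lower and 1 higher in low calcium. The counts over all rows, both directions together, were 842 of 7263 in high calcium and 439 of 4646 in low calcium. Cdh1, the E-cadherin gene, which the keratinocyte list also holds, had pair values of -0.86, -0.88 and -0.35 in high calcium and -0.26 in low calcium repeat 1 (high calcium log2 -0.70 ± 0.16 SE, n = 3 pairs; limma adjusted p = 0.0664). The Cdh1 decrease passed in 6 of 13 alternatives, among them the repeat block (limma adjusted p = 0.0358; 0.0221 to 0.591 over all of them). The 6 include the fits without low calcium repeats 2 and 3, where Cdh1 had no value of its own to lose. It did not pass without high calcium repeat 1 (-0.62, limma adjusted p = 0.493) or repeat 2 (-0.61, limma adjusted p = 0.481). Ctnnb1, the beta-catenin gene, had -0.48 and -0.89 in high calcium repeats 1 and 2 and -0.53 in low calcium repeat 1 (limma adjusted p = 0.151 in high calcium). Cdh1 and Ctnnb1 were chosen after their values were seen. The other cadherin and catenin genes of the list lay on both sides of 0. Cdh3 was at log2 -0.52 in high and -0.64 in low calcium, and Ctnna1 at -0.50 and -0.47. Ctnnal1 was at 0.285 in high calcium. Ctnnd1 had pair values of 0.08 in high calcium repeat 2 and 0.11 in low calcium repeat 1, and Jup 0.06 in high calcium repeat 2. In the 3 pairs that measured Cldn1, 9 of 15 adherens genes were lower in all 3 and 3 were higher in all 3. Over all 5208 genes 25.1% were lower and 29.6% higher in all 3. The median 3-pair mean of the adherens genes was -0.23, against 0.02 over all 5208 genes.

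No desmosome, gap junction, actomyosin or barrier regulator gene passed at either level (limma). Between 3 and 16 of each list were tested in high calcium and between 2 and 14 in low calcium. At an unadjusted p under 0.05 these lists had, in that order, 0 of 3, 2 of 7, 3 of 14 and 4 of 16 genes in high calcium. In low calcium they had 2 of 2, 0 of 3, 1 of 14 and 0 of 10. All rows tested had 842 of 7263 in high calcium and 439 of 4646 in low calcium. Of the smallest p in each list, the plakophilin gene Pkp1 stood at log2 -0.30 in high calcium and -0.51 in low calcium, and the connexin-43 gene Gja1 at -0.81 in high calcium (limma adjusted p = 0.0991). The membrane-actin linker ezrin (Ezr) stood at -0.83 in high calcium (limma adjusted p = 0.0913), and the myosin light chain gene Myl9 at -0.46 in low calcium. Gja1 and Ezr passed in high calcium with each level fitted alone (limma adjusted p = 0.0343 and 0.0318). That fit called 234 rows in high calcium, against 101 in the main fit. Pkp1 (log2 0.88) and Myl9 (1.06) passed in low calcium with signs kept (limma adjusted p = 0.0379 and 0.0311). There 785 rows were called in low calcium, against 19 in the main fit. The transcription factor genes Tfap2a and Maf were at -0.42 in high calcium and 0.35 in low calcium, and the pannexin gene Panx1 at -0.12 in low calcium.

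Keratin, integrin and cadherin probes of keratinocytes gave values, but a ratio of 2 RNAs gives no level, so the labelled cell type could not be checked by level. The keratinocyte list was written with earlier results of these data known, so its shares are a description and no test. In it 3 of 10 genes tested fell in high calcium (against 0.84% of rows called lower). They were Krt10 (log2 -1.57, limma adjusted p = 0.00799), Itgb1 (-0.93, limma adjusted p = 0.0315) and Serpinb5 (-0.89, limma adjusted p = 0.0393). The rest did not pass: Krt5 (0.12), Itga6 (0.06), Col17a1 (0.22) and Sfn (0.21) lay above 0, and Itgb4 (-0.26), Trp63 (-0.55) and Cdh1 (-0.70) below it. In low calcium 2 of 7 fell (against 0.387% of rows called lower), Itgb1 (-1.25, limma adjusted p = 0.0125) and Serpinb5 (-0.80, limma adjusted p = 0.0488). None of these 5 calls, nor that of Lima1, passed when pairs of 1 array were kept or the variance prior was trended and robust, where no row was called. With array spreads equalised Krt10 passed (limma adjusted p = 0.0455), and Itgb1 and Serpinb5 at both levels and Lima1 did not (0.105 to 0.681). With signs kept none of the 6 passed. The direction of Serpinb5 helped to choose the turning and is no independent result. Krt10, Itgb1 and Serpinb5 were not among the keratinocyte markers planned as a cell type check, and none of the planned markers passed. Itgb1 did not pass in high calcium without high calcium repeat 2 (-0.69, limma adjusted p = 0.278) or in low calcium without low calcium repeat 1 (-1.08, limma adjusted p = 0.0718). Serpinb5 did not pass in low calcium without low calcium repeat 1 (-0.69, limma adjusted p = 0.215) or repeat 3 (-0.76, limma adjusted p = 0.154). In high calcium Serpinb5 did not pass when repeat numbers formed a block (-0.93, limma adjusted p = 0.0623), and with its single forward array of repeat 3 kept it stood at -0.10 (limma adjusted p = 0.969). Of the markers of fibroblasts, melanocytes, endothelium and immune cells, 24 in all on the arrays, none of the 18 tested in high calcium or 17 in low calcium passed (limma). At an unadjusted p under 0.05 there were 0 of them in high calcium and 1 in low calcium, against 842 of 7263 and 439 of 4646 rows. The medians of these 4 lists lay between -0.01 and 0.14 in high calcium and between -0.09 and 0.20 in low calcium, and their part in the Cldn1 values was not tested.

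No gene passed the test of the difference between calcium levels (limma, 4209 rows, 106 at an unadjusted p under 0.05), and Cldn1 had too few low calcium pairs to enter it.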

How the data were processed

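The deposited table holds 1 dye ratio per probe and array; the authors' log base is not stated and the values were taken as log2 ratios from their range (-7.88 to 4.60). Array medians lay between -0.0005 and 0.0005, so the deposited log2 values were already centred. How spots were scanned, corrected, normalised and filtered is not given in the sources used here. For names, the platform annotation supplied probe names: 7457 probes had 1 symbol, 481 had several and 1620 were unlisted, and 7368 symbols were updated by gene ID (GRCm38.p6). Probes of 1 symbol were averaged, which gave 8875 rows.

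Arrays were centred on their median over rows. A pair value needed both arrays. The 6 pairs were fitted together with limma 3.58.1 (R 4.3.3), with a mean per calcium level and eBayes. A row needed 2 pairs of a level, and a Benjamini-Hochberg adjusted p under 0.05 over all rows was called. The procedure was also run on simulated pairs with normal noise and added positive effects, equal at both calcium levels. These had no dye orientation, so they cannot bear on the choice of direction. The gene, the lists and the turning of reversed arrays were chosen with earlier results of these data known. Named genes were all claudins, list members that passed, and otherwise the smallest p of each junction list per level; exceptions are marked. Alternatives covered signs kept as deposited, single orientations, centring, array spread, variance model, repeat block and left-out pairs. Cy3 in the numerator, which would turn all signs together, was not run as a fit. Precision is limited by the number of arrays. Depth does not apply to ratios.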

Additional observations from a re-analysis of the deposited data

How the results depend on the processing

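Taking the median over pairs or keeping pairs with 1 array could not move Cldn1. It had 2 pairs in high calcium, 1 in low calcium and none with only 1 array. Leaving out centring, on arrays already centred, gave -1.33 in high and -1.52 in low calcium. Leaving out 1 pair gave -1.46 to -1.20 in high calcium; without low calcium repeat 1 there was no low calcium value. With arrays brought to the same spread Cldn1 was at -1.84 in high and -1.97 in low calcium. On forward arrays alone it was at -1.54, and on reversed arrays alone at -1.12, in high calcium. With signs kept as deposited it was at -0.21 in high and 0.11 in low calcium. Cldn1 has 1 probe, so no probe could be left out.

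The counts of called rows, 101 in high and 19 in low calcium, were 0 and 785 with signs kept, 0 and 0 with pairs of 1 array kept and with a trended and robust variance, 15 and 0 with array spreads equalised, and 234 and 49 with each level fitted alone. With 1 pair left out they ran from 31 to 153 in high calcium and from 6 to 51 in low calcium: 31 and 33 without high calcium repeats 1 and 2, 153 without low calcium repeat 3, and in low calcium 49, 51 and 36 without high calcium repeats 1, 2 and 3 and 6 without low calcium repeat 1. The difference between levels had 0 to 1 called rows. The causes were not tested. Leaving out a pair can leave fewer rows to test at its own calcium level, not at the other level.

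The labels number the repeats alike at both levels and do not say if same-numbered samples share more than the number. Over 1381 complete rows the deviations of same-numbered pairs correlated at -0.03, -0.11 and 0.20. Those of differently numbered pairs correlated at -0.29 to 0.27. With the replicate block 116 rows were called in high calcium, 59 in low calcium and 1 for the difference.

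With signs kept, these log2 ratios changed sign: in high calcium Amotl2 (0.22), Cdh1 (0.42), Cldn6 (0.61), Ctnnb1 (0.10), Dlg1 (0.017), Gja1 (0.041), Itgb1 (0.49), Pkp1 (0.25), Serpinb5 (0.020), Tfap2a (0.49) and Trp63 (0.17), and in low calcium Cldn4 (0.82), Cldn8 (-1.45), Itgb1 (0.86), Lima1 (-0.80), Maf (-0.24), Magi3 (-0.34), Myl9 (1.06), Panx1 (0.39), Pkp1 (0.88) and Serpinb5 (0.70). With pairs of 1 array kept, Cldn6 (0.05) and Pkp1 (0.25) in high and Panx1 (0.16) in low calcium changed sign, as did Panx1 with arrays on the same spread (0.034). With the block Cldn4 was at -0.023 in high and Trp63 at 0.17 in low calcium. With 1 pair left out Cldn5 in low calcium ran from -0.33 to 0.19, above 0 without low calcium repeat 3, and Cldn8 from -0.16 to 0.25, below 0 without low calcium repeat 2.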
